A study of Mus musculus with 9 samples.

Results

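The genes described here are 6 genes of cholesterol synthesis in mouse embryonic stem cells, read through nascent transcription at 3 times after a long noncoding RNA was switched on. The 6 genes were Hmgcs1, Sqle, Acat2, Insig1, Fdft1 and Idi1. A region of the deposited list was a member where the centre of its counting window lay inside one of these genes or within 2 kb of either end. This gave 9 of 174289 regions, 4 in Fdft1 and 1 in each of the other 5 genes, and all 9 passed the filter on low counts that left 54299 regions for testing. Regions were assigned to the genes by position alone, with no measured value. The 6 genes themselves were chosen with earlier results of these data known.

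PRO-seq (precision nuclear run-on sequencing) marks RNA polymerases that are transcribing with a biotin-labelled nucleotide and sequences the RNA they are making. A read therefore reports where a polymerase was, and not how much mature mRNA a cell held. The regions are bidirectional ones, where polymerases leave in both directions, as they do at promoters and enhancers. Each was counted over a 600 bp window, and levels below are CPM, read counts scaled to a common library total over all regions after TMM normalisation (trimmed mean of M-values).

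All 9 libraries came from embryonic stem cells with the genotype Firre KO / Firre inducible transgene, a knockout of the long noncoding RNA Firre that carries a Firre copy switched on by doxycycline. The libraries were 3 at 0 min with no doxycycline, 3 at 15 min and 3 at 30 min of doxycycline at 1 ng/μL. Cells were grown on gelatin in medium with fetal calf serum, LIF, PD0325901 and CHIR99021. No library had doxycycline without the transgene, so the drug and the transgene RNA cannot be told apart here. Mouse nuclei were mixed with 1% Drosophila S2 nuclei, whose counts were not used here, so every change is relative to the other mouse regions. Nothing in the labels says whether libraries of one time came from separate cultures, so the error behind each p-value is that among libraries and may be technical. In bulk nuclei, fewer cells transcribing a gene and less transcription per cell cannot be told apart.

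Reads in regions ran from 3813365 to 5980366 per library, so that 3 counts equal at most 0.787 CPM. Firre summed over its 8 regions was 2.48 to 4.92 CPM at 0 min, 274 to 338 CPM at 15 min and 776 to 790.5 CPM at 30 min, which fits the labels. Of 8 embryonic stem cell markers, 7 had a tested start region. The other marker, Pou5f1, had no start region. None of the 7 was called in any comparison. Among all tested start regions, 10.0% were called at 15 min against 0 min, 1.17% at 30 min against 0 min and 0.564% at 30 min against 15 min. The summed level of the 7 was 749.8 to 853.5 CPM across the 9 libraries. Most of it came from Nanog and Sox2, at means of 316 and 275 CPM at 0 min, while Esrrb was at 3.66 CPM. Lists for feeder fibroblasts, trophectoderm and primitive endoderm had 1 tested start region each, with sums of 0.559 to 3.17, 0.448 to 3.79 and 2.33 to 5.91 CPM across all libraries. The defining liver genes Alb, Apoa1, Ttr and Cyp7a1 had no start region. On the second principal component of all regions, 13.9% of the variance, 15 min library 3 stood apart at 85.6, with the other 8 libraries at -55.1 to 16.5.

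Cholesterol is built from acetyl-CoA through the mevalonate pathway. Acat2 joins acetyl-CoA units, Hmgcs1 extends the product to HMG-CoA, Idi1 interconverts the isoprene building blocks, Fdft1 (squalene synthase) makes squalene and Sqle (squalene epoxidase) commits it to sterols. The transcription factor SREBP2 drives these genes when sterol is low. Insig1 closes the loop: it is itself an SREBP target, and its protein holds the SREBP escort SCAP in the endoplasmic reticulum when sterol is plentiful.

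The promoters are shown because this shared control acts on them and because 5 of the 9 windows lie at an annotated gene end. RefSeq promoters on GRCm38.p6, the assembly of mm10, were found for 4 of the 6 genes, and the 250 bases before the annotated start are printed 5′ to 3′ on the gene's own strand. Capitals mark matches, on either strand, to the sterol regulatory element core TCACNCCAC, to the NF-Y box CCAAT, to the Sp1 GC box GGGCGG or to the E-box CACGTG, so that a match on the opposite strand is read as its reverse complement. No match overlapped another. The stretches are chr17:12960726-12960975 on the minus strand for Acat2, chr13:119690101-119690350 on the plus strand for Hmgcs1, chr13:8885356-8885605 on the plus strand for Idi1 and chr5:28071162-28071411 on the plus strand for Insig1.
Acat2: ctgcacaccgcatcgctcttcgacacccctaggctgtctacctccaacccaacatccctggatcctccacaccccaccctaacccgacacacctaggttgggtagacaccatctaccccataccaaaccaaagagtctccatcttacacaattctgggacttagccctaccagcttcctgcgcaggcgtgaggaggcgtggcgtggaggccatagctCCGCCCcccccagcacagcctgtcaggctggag
Hmgcs1: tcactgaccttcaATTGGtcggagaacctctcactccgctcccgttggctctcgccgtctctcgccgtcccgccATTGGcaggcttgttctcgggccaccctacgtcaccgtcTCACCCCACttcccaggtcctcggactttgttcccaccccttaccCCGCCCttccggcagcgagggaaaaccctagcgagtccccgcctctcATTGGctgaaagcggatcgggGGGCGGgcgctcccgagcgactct
Idi1: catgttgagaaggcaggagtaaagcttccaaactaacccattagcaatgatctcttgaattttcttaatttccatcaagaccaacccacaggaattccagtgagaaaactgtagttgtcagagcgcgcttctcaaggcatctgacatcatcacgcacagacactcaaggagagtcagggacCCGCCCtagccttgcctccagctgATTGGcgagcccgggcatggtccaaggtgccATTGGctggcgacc
Insig1: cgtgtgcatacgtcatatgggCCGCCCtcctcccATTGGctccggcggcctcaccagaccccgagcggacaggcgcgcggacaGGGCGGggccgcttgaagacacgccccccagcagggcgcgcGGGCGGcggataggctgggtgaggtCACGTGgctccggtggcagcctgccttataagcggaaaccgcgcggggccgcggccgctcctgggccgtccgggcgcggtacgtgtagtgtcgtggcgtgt
Hmgcs1 held 1 match to the sterol element core, on the gene's strand with its first base 137 bases before the start. Of all 32817 mouse promoters of that length, 1.05% held such a match. It also held 3 NF-Y boxes and 2 GC boxes. Idi1 held 2 NF-Y boxes, 45 and 14 bases before the start, and 1 GC box. Insig1 held 1 NF-Y box, 3 GC boxes and 1 E-box, and Acat2 held 1 GC box. Across the same promoters, 33.8% held an NF-Y box, 32.7% a GC box and 6.02% an E-box. The match is a description of letters, and its absence says only that these letters are not in this window. The whole stretch lies inside the counting window for Acat2, Hmgcs1 and Insig1, and 4 of its bases do for Idi1.

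At 0 min the order of levels was set by Insig1, which averaged 180.8 ± 23.2 CPM per 600 bp window (SD, n = 3) and lay above every other member region in every library. Sqle came next at 61.9 ± 2.98 CPM. The third of the 4 Fdft1 windows counted from its lower coordinate was at 54.3 ± 4.57 CPM, the fourth at 47.5 ± 6.05 CPM, and Acat2 and Hmgcs1 were both at 45.5 CPM, with Idi1 at 39.0 ± 4.81 CPM. From Sqle down to Idi1, each neighbour in this order overlapped the next in its 3 libraries. The second Fdft1 window at 29.2 ± 2.27 CPM and the first at 14.6 ± 3.10 CPM each lay below all libraries of the one before.

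**Figure D1:**
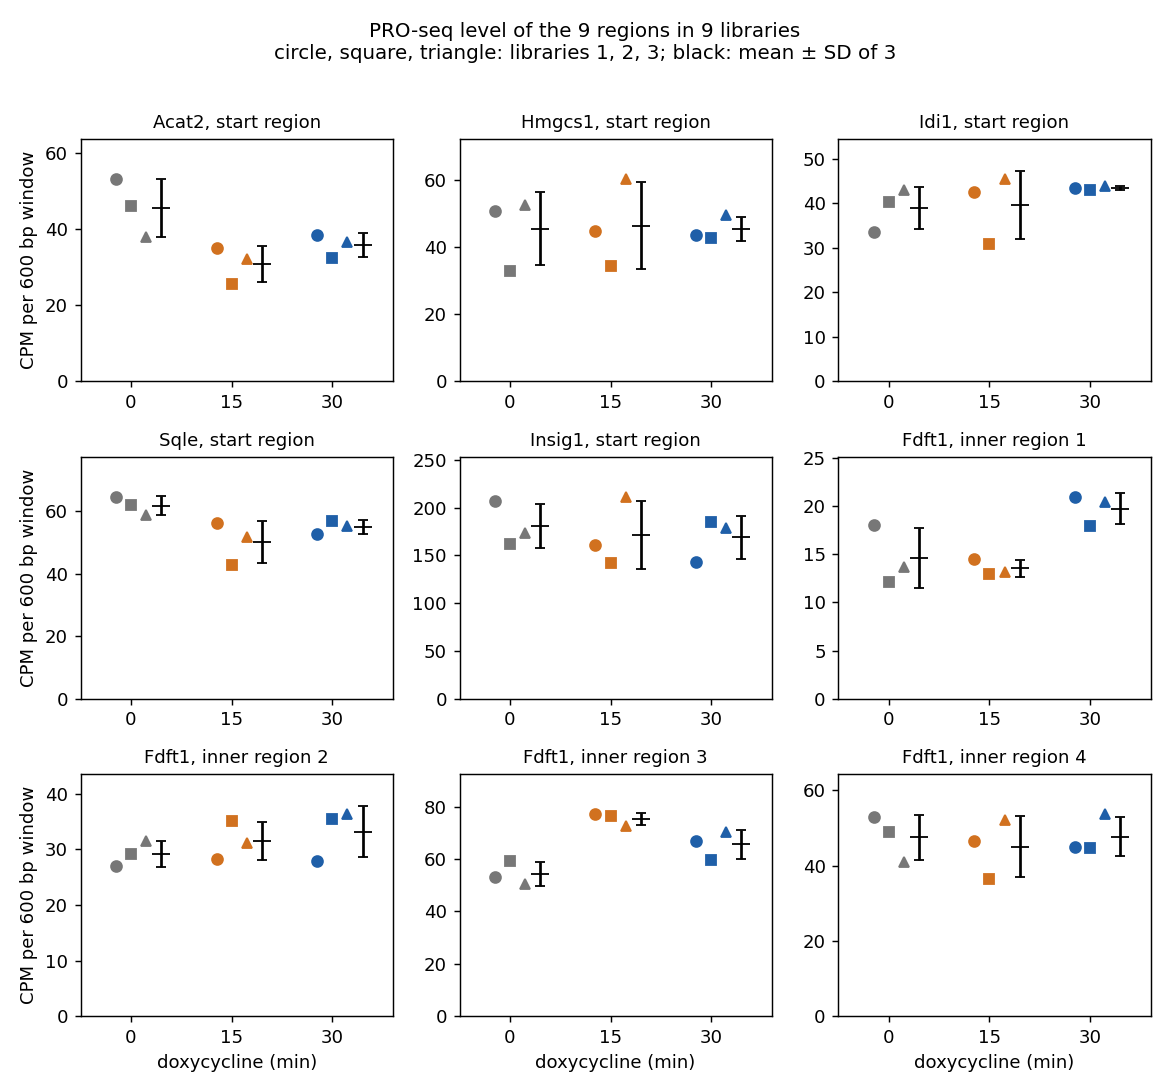
PRO-seq level (CPM per 600 bp window) of the 9 member regions at 0, 15 and 30 min of doxycycline, with 1 point per library and the mean ± SD of 3 in black beside each time. All 15 min points lie below all 0 min points for Acat2 and Sqle, and all lie above them in the third inner region of Fdft1, while Hmgcs1 and Insig1 overlap at every time. Such a separation at 15 against 0 min held for 25.5% of all tested regions in one direction or the other.

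At 15 min against 0 min, 1 of the 9 regions fell, the start of Acat2, and 1 rose, a region inside Fdft1. The background is 8.25% of all 54299 tested regions called at an adjusted p under 0.05, with 4.29% higher and 3.96% lower. A count of 2 in so few regions, in opposite directions, says nothing of the genes as a group. The median log2 change of the 9 was -0.08, beside 0.02 over all tested regions and -0.15 over tested start regions, the class of 5 of the 9. Among tested start regions 8.26% were called lower and 1.76% higher. At 30 min against 0 min none of the 9 was called by edgeR, with a background of 1.74% (1.24% higher and 0.497% lower), 3 at an unadjusted p under 0.05 and 0 by DESeq2. At 30 min against 15 min none was called by edgeR either, with a background of 0.704%, 1 at an unadjusted p under 0.05 and 0 by DESeq2. All p-values given are from edgeR's quasi-likelihood test, Benjamini-Hochberg adjusted over all tested regions, and each log2 change is the later time over the earlier.

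**Figure D2:**
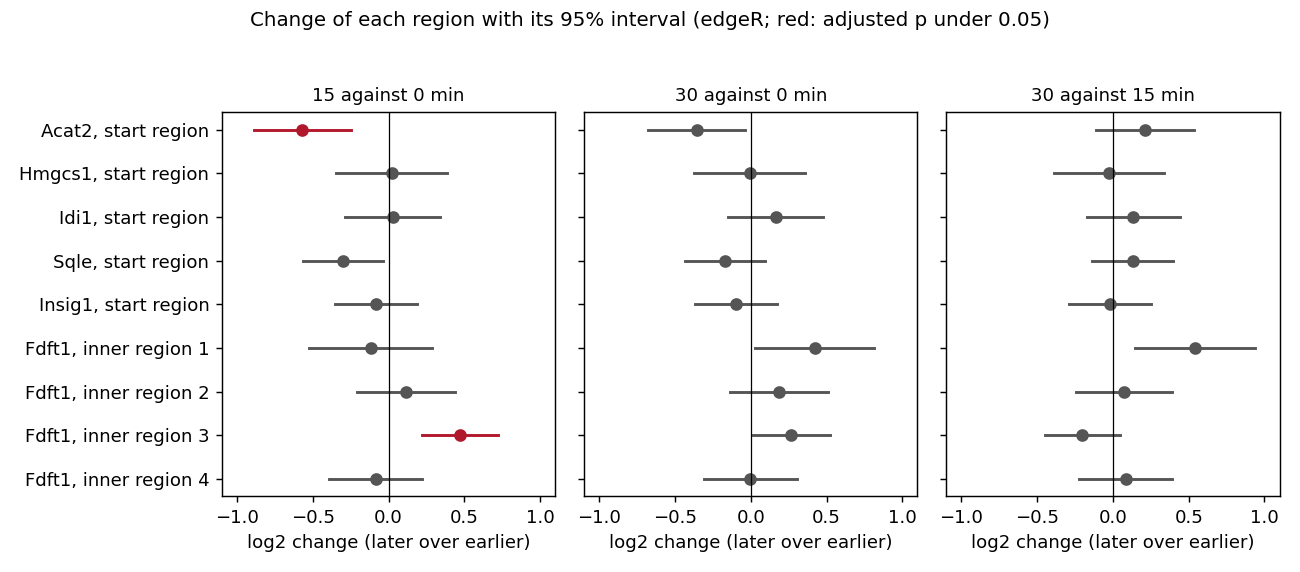
Log2 change of each member region with its 95% interval from edgeR, in 3 panels for 15 against 0 min, 30 against 0 min and 30 against 15 min, with red for an adjusted p under 0.05. The only red points are Acat2 at -0.57 and the third inner region of Fdft1 at 0.47, both at 15 against 0 min.

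Acat2 is the cytosolic thiolase at the head of the pathway. Its window, chr17:12960380-12960979, has its centre 46 bp inside the annotated start, and the end of a pseudogene, Gm15946, lies 284 bp from that centre. The level was 34.8, 25.5 and 32.1 CPM in the 3 libraries at 15 min, against 53.0, 45.9 and 37.8 CPM at 0 min. Every 15 min library was below every 0 min library, which held for 25.5% of all tested regions in one direction or the other. The log2 change was -0.57 ± 0.16 (SE; 95% interval -0.89 to -0.25; adjusted p = 0.0237), a level 0.674 times that at 0 min. At 30 min the libraries stood at 38.4, 32.2 and 36.5 CPM, between the other times and overlapping both. The log2 change at 30 min against 0 min was -0.36 ± 0.16 (adjusted p = 0.263), and at 30 min against 15 min it was 0.21 ± 0.16 (adjusted p = 0.721).

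The Acat2 call did not hold in every alternative. It was lost without 0 min library 1, the highest (log2 -0.46, adjusted p = 0.141), and without 15 min library 2, the lowest (log2 -0.47, adjusted p = 0.125). Calls over all regions also fell in these fits, from 4479 as reported to 2150 and 2123. The Acat2 call was also lost when TMM factors came from regions at gene ends alone (log2 -0.42, adjusted p = 0.0868), a scaling that puts the median of all tested regions at 0.18 in place of 0.02. Without 15 min library 3 it held, at -0.60 (adjusted p = 0.0175), with 6412 calls over all regions. A ratio within each library needs no scaling: per 100 reads at the starts of Hmgcs1, Idi1, Insig1 and Sqle, Acat2 had 11.5, 10.2 and 8.70 reads at 15 min, against 14.9, 15.4 and 11.5 at 0 min. The lowest 0 min library and the highest 15 min library were almost equal on that ratio, which was chosen after the values were seen and carries no test.

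Hmgcs1 makes HMG-CoA from the product of the thiolase step. Its window, chr13:119689939-119690538, is centred 113 bp outside the start and covers the promoter printed above with its sterol element match. It read 50.8, 32.9 and 52.7 CPM at 0 min, 44.7, 34.3 and 60.2 CPM at 15 min, then 43.7, 42.9 and 49.5 CPM at 30 min. The 3 times overlapped, with 15 min library 3 the highest of the 9 and 0 min library 2 the lowest. The log2 change at 15 min against 0 min was 0.02 ± 0.18, with a 95% interval of -0.35 to 0.39, and at 30 min against 0 min it was -0.01 ± 0.18 (-0.37 to 0.36). The sign of both values turned under several alternatives, and both intervals include 0. The authors' called region around this window was 1956 bp wide, against a median of 342 bp over all regions, and 2.84% of all regions were wider than 1900 bp.

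Idi1 converts isopentenyl diphosphate to its reactive isomer. Its window, chr13:8885602-8886201, begins at the start and reaches into the gene, with its centre 295 bp inside. It had 33.7, 40.3 and 43.0 CPM at 0 min, 42.7, 30.9 and 45.4 CPM at 15 min, then 43.5, 43.1 and 43.9 CPM at 30 min. The 30 min libraries were all above the 0 min ones by a narrow gap, which 20.4% of tested regions also showed in one direction or the other. The log2 change was 0.03 ± 0.15 at 15 min (adjusted p = 0.937) and 0.16 ± 0.15 at 30 min (adjusted p = 0.669).

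Fdft1, squalene synthase, joins farnesyl units into squalene, the first step that belongs to sterols alone. The annotated gene spans chr14:63145150-63181687, 36.5 kb, with 4 transcripts of which 2 are predicted models, and no region lay within 1 kb of either end. Its 4 regions lay 20.1, 24.4, 26.1 and 32.7 kb from the lower-coordinate end. The tables used here do not give its strand, and whether one of the regions marks the start of a shorter transcript was not analysed here. The third window, chr14:63170965-63171564, had 77.0, 76.4 and 72.6 CPM at 15 min, against 53.3, 59.3 and 50.3 CPM at 0 min. It had no overlap between these times, which 25.5% of tested regions also showed in one direction or the other. Its log2 change was 0.47 ± 0.12 (95% interval 0.22 to 0.72; adjusted p = 0.0161), a level 1.39 times that at 0 min. At 30 min it had 66.9, 59.6 and 70.2 CPM, above all 0 min and below all 15 min libraries. The gap to the highest 0 min library was narrow, 59.6 against 59.3 CPM. Of all tested regions, 20.4% did not overlap at 30 min against 0 min, and 16.0% at 30 min against 15 min. Neither 30 min difference passed the test (log2 0.27, adjusted p = 0.291 against 0 min, and log2 -0.20, adjusted p = 0.625 against 15 min).

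The other Fdft1 windows showed other courses. The fourth, chr14:63177578-63178177, had 52.8, 48.8 and 40.9 CPM at 0 min, 46.5, 36.4 and 52.2 CPM at 15 min, then a mean of 47.7 ± 5.08 CPM at 30 min, with all times overlapping. The second, chr14:63169226-63169825, was at 29.2 ± 2.27 CPM at 0 min, 31.5 ± 3.39 CPM at 15 min, then 33.2 ± 4.62 CPM at 30 min, again with overlap. The first, chr14:63164932-63165531, had 18.1, 12.1 and 13.6 CPM at 0 min, 14.5, 13.0 and 13.1 CPM at 15 min, then 21.0, 17.9 and 20.4 CPM at 30 min. Its 30 min libraries were above all 15 min ones, as 16.0% of tested regions were in one direction or the other, but the change missed the test (log2 0.54 ± 0.19, adjusted p = 0.293).

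**Figure D3:**
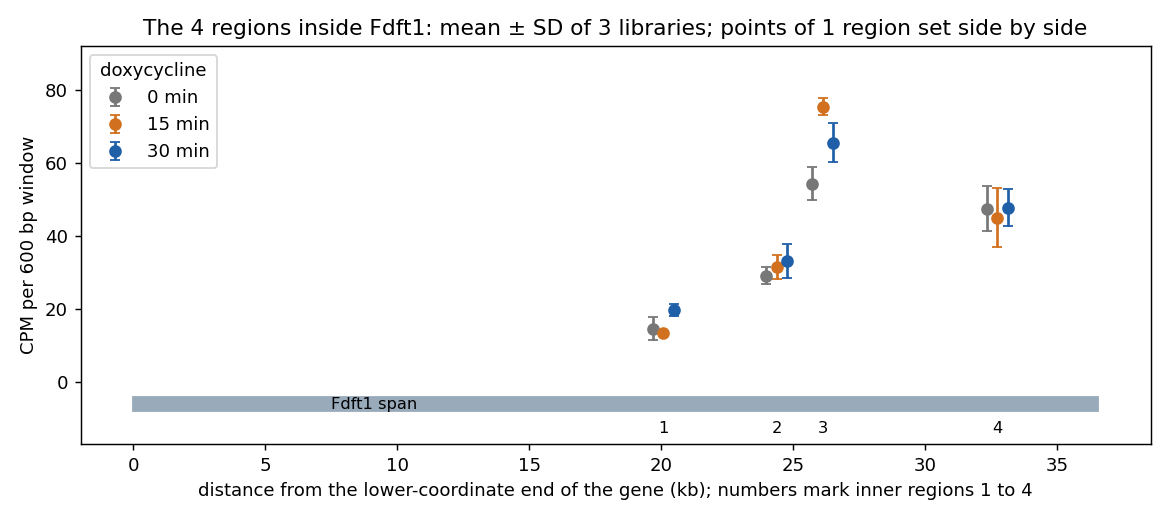
The 4 regions inside Fdft1, drawn to scale by distance in kb from the lower-coordinate end of the gene, with the mean ± SD of 3 libraries at 0, 15 and 30 min in CPM per 600 bp window. The third region, 26.1 kb from that end, is at 75.4 CPM at 15 min against 54.3 CPM at 0 min, while the fourth is at 45.0 against 47.5 CPM.

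As a share of all Fdft1 reads in a library, a measure free of scaling but chosen after the values were seen and so not tested, the third window held 46.3, 47.5 and 43.0% at 15 min, against 35.3, 39.7 and 36.9% at 0 min. At 30 min it held 41.6, 37.9 and 38.9%, overlapping the 0 min values. Its call was lost without 0 min library 1 (adjusted p = 0.0761), 0 min library 3 (0.0944), 15 min library 1 (0.0690) or 15 min library 2 (0.0692), and with no filter on low counts (0.0766), with log2 changes of 0.40 to 0.46. Over all regions, leaving out one of those libraries gave 2123 to 2950 calls, beside 4479 as reported. The call of the third window held without 15 min library 3 (log2 0.49, adjusted p = 0.0122), which gave 6412 calls over all regions. Summed over its 4 regions, Fdft1 was at 145.6 ± 8.04 CPM at 0 min, 165.4 ± 4.15 CPM at 15 min, then 166.2 ± 12.4 CPM at 30 min. Against 0 min neither sum passed the test (log2 0.25, adjusted p = 0.0597 at 15 min; log2 0.24, adjusted p = 0.139 at 30 min).

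Sqle oxidises squalene and is a rate-limiting step of the later pathway. Its window, chr15:59314622-59315221, is centred 171 bp outside the lower-coordinate end of the gene. It read 64.7, 62.2 and 58.7 CPM at 0 min, 56.2, 42.7 and 51.7 CPM at 15 min, then 52.7, 57.0 and 55.2 CPM at 30 min. Every library with doxycycline was below every one without, a separation that 25.5% of tested regions showed at 15 min and 20.4% at 30 min in one direction or the other. The differences did not pass the test, at log2 -0.30 ± 0.13 for 15 min (unadjusted p = 0.0272, adjusted p = 0.154) and -0.17 ± 0.13 for 30 min (adjusted p = 0.570). Over all tested start regions the median log2 change was -0.15 at 15 min and -0.11 at 30 min.

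Insig1, the retention factor, had the brightest window of the 9, chr5:28070970-28071569, above 98.1% of tested regions at gene ends. It is centred 143 bp outside the start and also lies inside the long noncoding RNA gene Gm35223. The strand counted is not given in the sources used here, so reads of the 2 genes cannot be told apart. The levels were 206.9, 162.3 and 173.3 CPM at 0 min, 160.5, 142.4 and 211.3 CPM at 15 min, then 143.2, 185.3 and 178.2 CPM at 30 min. The times overlapped fully, and the library spread exceeded the differences between means. The log2 change was -0.08 ± 0.13 at 15 min (95% interval -0.35 to 0.19) and -0.10 ± 0.13 at 30 min (-0.37 to 0.17), and both turned slightly positive when scaled on gene-end regions (0.06 and 0.00).

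Summing each gene's regions and testing all 21899 genes with enough counts, 1 of the 6 genes was called at 15 min against 0 min, beside a background of 13.1%. It was Acat2, with log2 -0.50 ± 0.15 (adjusted p = 0.0377), and that call was lost without 0 min library 1, 0 min library 2, 15 min library 2 or 30 min library 3. None of the 6 was called by edgeR or by DESeq2 at 30 min against 0 min, beside 2.65%, or at 30 min against 15 min, beside 0.918%.

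**Figure D4:**
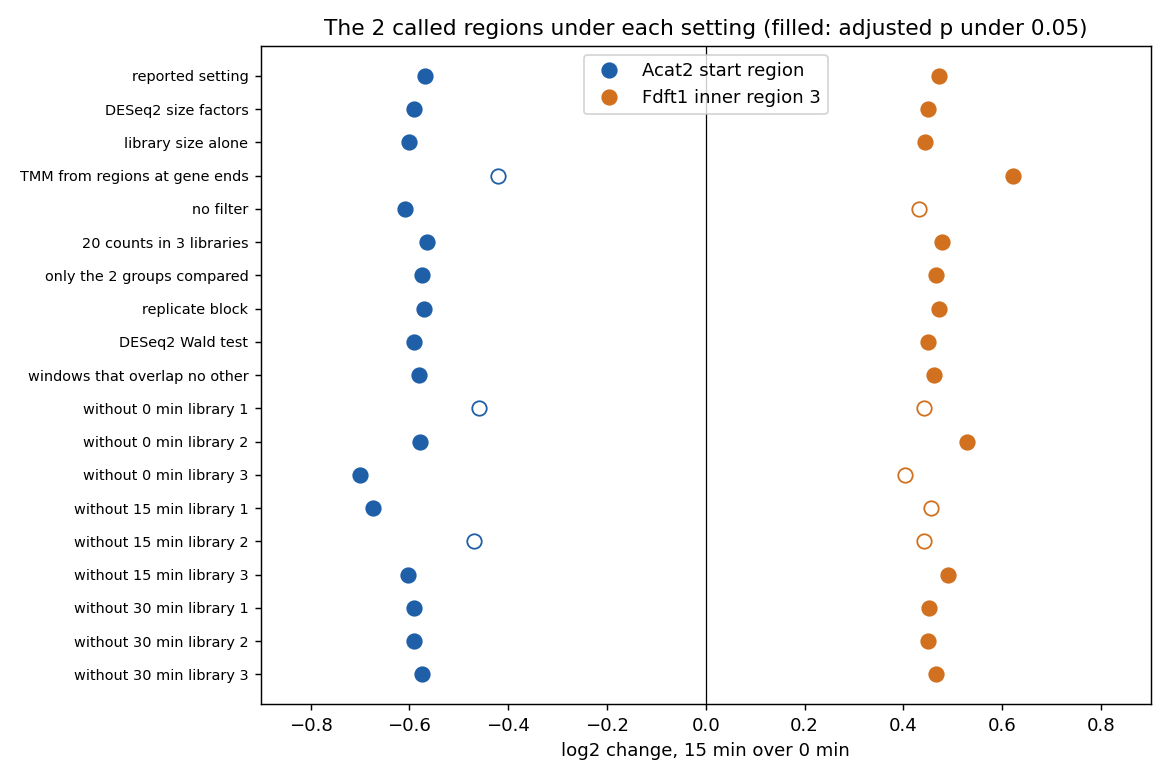
Log2 change at 15 min over 0 min of the start region of Acat2 and the third inner region of Fdft1 under the reported setting and 18 alternatives, filled where the adjusted p was under 0.05. Acat2 runs from -0.70 to -0.42 and is open in 3 alternatives, and Fdft1 runs from 0.40 to 0.62 and is open in 5.

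The 5 start regions differed in how closely they followed their common profile across libraries. With each region's log2(CPM + 0.5) centred on its own mean over 9 libraries, the root mean square distance to the mean of the 5 was 0.10 for Sqle, 0.12 for Insig1, 0.16 for Idi1, 0.19 for Hmgcs1 and 0.21 for Acat2. Each member is part of that mean, which lowers its own distance. Over 8091 other start regions of at least 50 mean counts, which are not part of it, the median distance was 0.221, so the members' distances are not to be read against it. The nearest were Sec16a (0.0628), which organises endoplasmic reticulum exit sites, Tomm5 (0.0638), part of the mitochondrial import channel, and Ezr (0.0644), a linker of membrane and actin. The members' mean profile was lowest in 15 min library 2, at -0.38 with all candidate start regions at -0.17, and highest in 0 min library 1, at 0.19 with all candidates at 0.14. Those are the 2 libraries without which the Acat2 call was lost. They are also the lowest and highest libraries of Acat2 itself, which is part of the mean profile. Their part in the call beyond that was not tested.

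The rest of the pathway was read at start regions from 4 lists with 42 genes, of which 35 were tested. At 15 min against 0 min, 1 of the 35 fell and none rose, beside 10.0% called among all 12411 tested start regions. The median log2 change was -0.22 and 29 of 35 (82.9%) were below 0, while over all start regions the median was -0.15 and 66.3% were below 0. Scaled on gene-end regions, the median was -0.06 and 21 of 35 were below 0. At 30 min against 0 min none was called by edgeR, beside 1.17%, with 1 at an unadjusted p under 0.05, and the median was -0.03 beside -0.11, turning to 0.08 when scaled on gene-end regions. At 30 min against 15 min none was called by edgeR, beside 0.564%, with 4 at an unadjusted p under 0.05, and the median was 0.16 beside 0.04.

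Among the other enzymes, 13 of 17 were tested and none was called at 15 min against 0 min, beside 10.0% of all tested start regions. Of the 13, 12 were below 0 with a median of -0.31 (10 of 13 and -0.15 when scaled on gene-end regions). Over all tested start regions in the reported scaling, 66.3% were below 0 and the median was -0.15. Mvd, which makes isopentenyl diphosphate, had 28.0, 20.4 and 24.0 CPM at 15 min, against 34.9, 33.1 and 32.0 CPM at 0 min. The libraries did not overlap, as in 25.5% of all tested regions in one direction or the other, but the change missed the test (log2 -0.46 ± 0.16, adjusted p = 0.0709). At 30 min against 0 min the median of the enzymes was 0.04, beside -0.11 over all start regions, and 0.14 when scaled on gene-end regions.

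Of 11 regulators and uptake genes 10 were tested, with a median of -0.11 at 15 min against 0 min, beside -0.15 over all tested start regions. Of the 10, 1 fell, Srebf1, beside 10.0% of all tested start regions called and 8.26% called lower. Srebf1 encodes SREBP1, the family member most tied to fatty acid synthesis. Its start region had 79.0, 89.2 and 99.3 CPM at 15 min, against 129.5, 112.4 and 104.4 CPM at 0 min. These did not overlap, as in 25.5% of all tested regions in one direction or the other. The log2 change was -0.38 ± 0.12 (adjusted p = 0.0470), and at 30 min it was -0.13 ± 0.12 (adjusted p = 0.662). The call held in 9 of 18 alternatives and was lost without 0 min library 1 or 2, 15 min library 1 or 2, or 30 min library 2 or 3, at log2 -0.41 to -0.30, with only the 2 groups compared or with no filter (-0.38 and -0.42), and when scaled on gene-end regions (-0.23). Srebf2, which encodes the factor most tied to the genes above, was at 0.01 (adjusted p = 0.970), and is named here after its value was seen.

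None of 4 tested genes of the LXR list, sterol efflux and its sensors, and none of 8 tested fatty acid genes was called in any comparison. Among all tested start regions, 10.0% were called at 15 min against 0 min, 1.17% at 30 min against 0 min and 0.564% at 30 min against 15 min. Mylip, an LXR target that degrades the LDL receptor, had 24.3, 22.5 and 37.4 CPM at 15 min, against 43.0, 28.4 and 39.3 CPM at 0 min (log2 -0.41, adjusted p = 0.181). Without 15 min library 3 its change was called (log2 -0.67, adjusted p = 0.0146). Over all regions that setting gave 6412 calls, beside 4479 as reported. Nr1h2, the LXR beta receptor, was at log2 -0.28 (adjusted p = 0.201), Scd1, a fatty acid desaturase, at -0.27 (adjusted p = 0.259) and Elovl6, a fatty acid elongase, at -0.20 (adjusted p = 0.315).

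**Figure D5:**
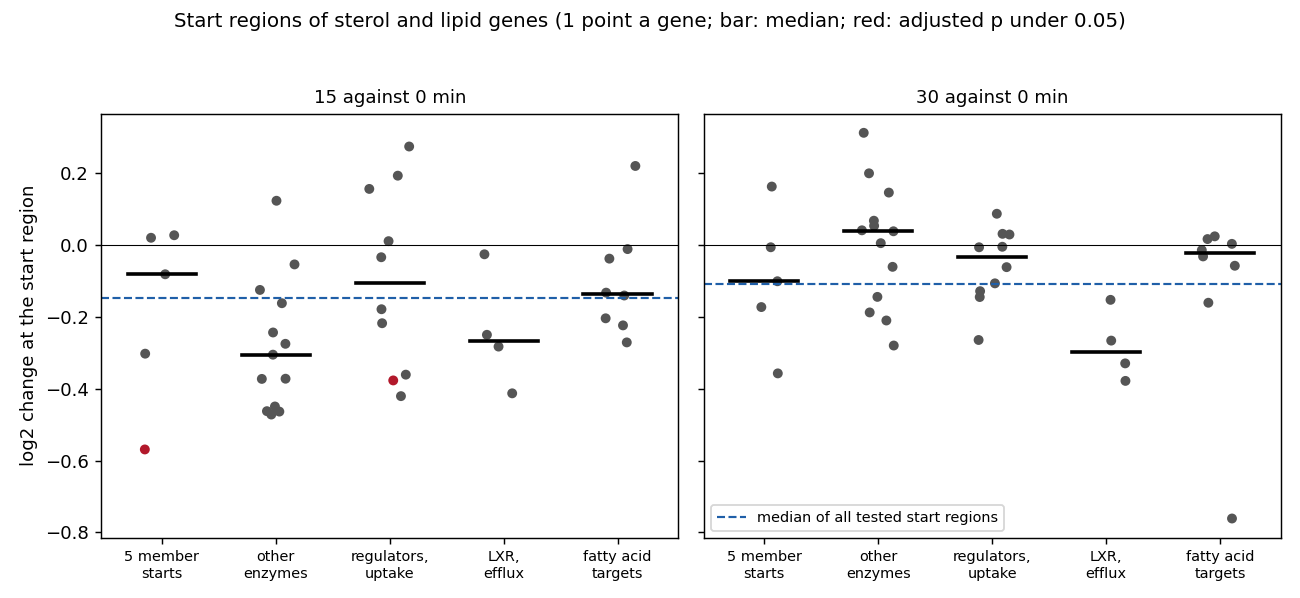
Log2 change at the start region of the 5 members with one and of the 4 lists of sterol and lipid genes, 1 point per gene, with a bar at each median, red for an adjusted p under 0.05 and a dashed line at the median of all tested start regions (-0.15 at 15 min, -0.11 at 30 min). At 15 against 0 min 12 of 13 other enzymes lie below 0 with a median of -0.31 (10 of 13 when scaled on gene-end regions). Of all tested start regions, 66.3% lie below 0 in that comparison. At 30 against 0 min the median of the other enzymes is 0.04 (0.14 when scaled on gene-end regions).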

How the data were processed

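PRO-seq counts of 9 mouse embryonic stem cell libraries, 3 per time, were used. The deposited table holds raw read counts per region, and the other deposited values are the region start and end coordinates on mm10, made with Tfit and muMerge per the file headers and names. Per the submitters' processing notes, HISAT2, featureCounts and DESeq2 1.26.0 were used. Their settings and the strand counted are not given in the sources used here. Window starts and ends were set 1-based.

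Counts were tested with edgeR 4.0.16 in R 4.3.3: filterByExpr kept 54299 regions and left out 119990, TMM factors were 0.971 to 1.02, and glmQLFit with glmQLFTest fitted all 9 libraries with time as a factor. Calls are at an adjusted p under 0.05. An estimate shared by all tested regions put the variation between libraries of one time, beyond counting noise, at a coefficient of variation of 15.1%. Of all windows, 50841 (29.2%) overlapped another, and no member window did. A start region is the one with most reads within 1 kb of a gene's annotated start, or of either end where the RefSeq promoter table lacks the gene. Counts were also summed per gene. Counts were also simulated for 15 min against 0 min over 54299 regions, with a single spread shared by all regions and no outlying library. Only regions of at least 50 mean counts were changed, 100 for each size of change. Log2 changes of 0.75 were recovered in 45% and of 1.5 in 99%, with 13 false calls. Recovery where spread differs between regions was not tested.

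Members and lists were chosen with earlier results of these data known. All regions of the members are given; other genes are named where called, otherwise the 2 of a list with the smallest p at 15 min, of which 1 is not reported here. Alternatives used other scalings, filters, sample sets, a replicate block, DESeq2 1.42.0, non-overlapping windows, other margins and each library left out. Whether the replicate numbers pair libraries across times was not settled. Deviations from the mean of each time correlated at -0.05 to 0.18 for the same number and at -0.20 to 0.10 for others, ranges that overlap. Between 15 and 0 min the same-number values were 0.04, 0.18 and 0.10.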

Additional observations from a re-analysis of the deposited data

How the results depend on the processing

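The calls at 15 min against 0 min were close to the threshold. Of the 9 member regions, 2 were called as reported, 1 with TMM from regions at gene ends, 1 with no filter, 4 when the margin was 10 kb, and 0 to 2 when each library was left out. Of the 6 summed genes, 1 was called as reported, and 2 with TMM from the full sums of genes that have a region within 1 kb of an end. With only the 2 groups compared 0 were called, with only regions within 1 kb of a gene end 0, and with each library left out 0 to 1. Other pathway genes called at the start region were 1 as reported, 0 with TMM from gene ends, 0 with no filter, 0 with only the 2 groups compared, and 0 to 3 with each library left out; these alternatives were added after seeing the data. No alternative gave a call among the 9 members at 30 min against 0 min or 15 min.

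Over all regions, leaving out each library gave 2123 to 6412 calls at 15 min against 0 min, 171 to 1510 at 30 min against 0 min and 154 to 548 at 30 min against 15 min. With the replicate number as a block, the pairing the labels' numbers would imply, the 15 min against 0 min comparison gave 2 member regions and 4804 in all, and no call of a member changed. The cause of these differences was not tested. Scaling on gene-end regions split the calls at 15 min into 4046 higher and 1056 lower, beside 2331 higher and 2148 lower as reported. Over all regions with enough counts, and not the member windows alone, pairs of libraries of one time varied more than counting noise. Their variance was 2.26 to 3.76 times that of counting noise (chi-square per degree of freedom). The member windows had 79.3 to 852 mean counts. No called direction reversed.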

Other observations

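Beyond the 2 kb margin, 5 further regions lay within 10 kb of a member gene, and all were tested. At 15 min against 0 min 2 of them were called, beside 8.25% of all regions, and at 30 min against 0 min none was called by edgeR. The window chr13:119716262-119716861, 8301 bp from Hmgcs1 and inside the kinase gene Nim1k, had 16.0, 17.2 and 12.4 CPM at 15 min, against 5.14, 8.06 and 6.82 CPM at 0 min. It had no overlap between these times, which 25.5% of tested regions also showed in one direction or the other. Its log2 change was 1.21 ± 0.24 (adjusted p = 0.00210). At 30 min it had 10.4, 10.1 and 14.5 CPM (log2 0.80 against 0 min, adjusted p = 0.0925).

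The window chr5:28064560-28065159, 6553 bp from Insig1 and inside the long noncoding RNA gene Gm35223, had 8.67, 8.39 and 8.26 CPM at 15 min, against 19.1, 14.3 and 18.4 CPM at 0 min. It fell, with a log2 change of -1.03 ± 0.21 (adjusted p = 0.00314). At 30 min it had 12.4, 14.5 and 18.5 CPM, overlapping the 0 min libraries, and the change at 30 min against 15 min was 0.83 (adjusted p = 0.0752). Both calls at 15 min held in all 18 alternatives, while the start regions of Hmgcs1 and Insig1 themselves were called in none. These windows were looked at after seeing the data, and whether either belongs to Hmgcs1 or Insig1 was not tested.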
